A study of Arabidopsis thaliana with 9 samples.

Results

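The genes described here are 224 Arabidopsis thaliana genes that carry only a locus name and whose signal was at least 2-fold below control after both 48 h and 6 h with BrvC. They were taken from 14745 locus-named genes measured by a probe set paired with 1 gene, and they make up 1.52% of these. For each gene the probe set with the highest mean was used. The genes were chosen by their measured differences from control: a gene entered where the group mean of its log2 values was lower than that of control by at least 1 at each time, and where all 6 BrvC arrays lay below all 3 control arrays. These differences are therefore given as a description, with no test. Whatever the size of the difference, 7.39% of all genes tested had all 6 BrvC arrays below all 3 control arrays. A locus name such as AT1G73610 gives the chromosome and the order of genes along it, and says nothing of what the gene encodes. All 224 are protein-coding in RefSeq's table of genes (assembly TAIR10.1) and still have no other symbol there. For 4 of them the table holds a descriptive name as a synonym, and no role is given to the others.

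Each of the 9 arrays held RNA from 10 to 15 detached leaves of ecotype Col-0, aged 30 days. The leaves lay in the dark in MS medium with 50 µM BrvC for 48 h (3 arrays) or 6 h (3 arrays), and those of the control group (3 arrays) were given the solvent, 0.05% DMSO. BrvC belongs to the brevicompanines, a group of alkaloids made by fungi. All 3 groups share genotype, age and medium, and the labels do not give the time in the dark of the single control group, so that BrvC and time in the dark cannot be told apart. Values are log2 signals per probe set, and 1 unit is a 2-fold change. The signal of a leaf array cannot tell fewer cells of a type from less RNA per cell.

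Detached leaves kept in the dark lose their supply of sugars from photosynthesis, and large parts of the leaf transcriptome are known to shift under such carbon shortage. The internal clock continues in darkness, and transcripts under its control differ with the hour of sampling. Many plant genes still carry only a locus name, and genes brought together by a rule on their signal need not share a pathway.

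The arrays of a group correlated at 0.978 or more over the 16550 genes tested, and no array stood apart. Of the leaf markers only RCA, the activase of Rubisco, and PRK, a phosphoribulokinase, had a probe set paired with 1 gene. PRK averaged 4.18 at 48 h and 6.59 at 6 h, against 6.29 in control, and RCA 8.48 at 48 h and 9.32 at 6 h, against 9.90 in control. The root beta-glucosidase PYK10 was low in every group, with 3.65 at 48 h and 3.43 at 6 h, against 3.27 in control, while the guard cell factor FAMA (FMA in the table) had 6.32 at 48 h and 6.90 at 6 h, against 5.70 in control. TRY, of the trichome list, was low in every group, with 2.33 at 48 h and 2.53 at 6 h, against 2.70 in control. No flower, phloem or xylem marker of the lists had such a probe set. Markers without one may still lie among the probe sets with several genes or none listed. GI, a clock gene that peaks toward evening in light, averaged 9.04 at 48 h and 7.65 at 6 h, against 7.98 in control. Of 13 clock genes it was the only one with a probe set paired with 1 gene. The part of these shifts in the values below was not tested.

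Across the 224 genes the median difference from control was -1.41 at 48 h (lowest -4.60, highest -1.003) and -1.82 at 6 h (lowest -4.74, highest -1.01). Over all 16550 genes tested the medians were -0.06 at 48 h and -0.10 at 6 h. The signal was at least 4-fold below control for 40 genes at 48 h and for 94 genes at 6 h, and for 24 genes at both times. It was at least 8-fold below control for 4 genes at 48 h and for 31 at 6 h. The gap between the lowest control array and the highest BrvC array ranged from 0.003 (AT3G19390) to 2.41 (AT1G62510), with a median of 0.82. The rule used the same differences that limma's fit against control tests, so the counts of that fit were largely decided by the choice of genes and nothing is read from them. They were 223 of the 224 at 48 h, beside 5.22% of all genes, and 224 at 6 h, beside 13.2% of all genes. The exception at 48 h was AT3G61390.

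That the BrvC arrays lay below the control arrays was a condition of the choice, and the level in each array is given as a description. The median signal of the 224 genes was 4.73, 4.79 and 5.03 in the 48 h arrays and 4.34, 4.46 and 4.47 in the 6 h arrays, against 6.53, 6.47 and 6.63 in the control arrays. The median over all genes tested lay between 3.80 and 3.87 in every array. Over all probe sets, with those of several genes or none listed, the medians differed between the groups. They were 4.025, 4.00 and 4.10 at 48 h and 4.25, 4.17 and 4.20 at 6 h, against 3.81, 3.80 and 3.93 in control. The cause of this shift was not tested. Replicate 3 was more often the highest array of its group than the other replicates, for 96 of the 224 genes at 48 h and 108 at 6 h, against 104 in control. The spread within a group had a median SD of 0.24 at 48 h and 0.18 at 6 h, against 0.33 in control (n = 3 each), and in control it reached 1.29. The labels call the replicates biological without saying what sets them apart. The p-values given here rest on the spread between these arrays, which limma moderates for each gene by the spread of the other genes.

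**Figure D1:**
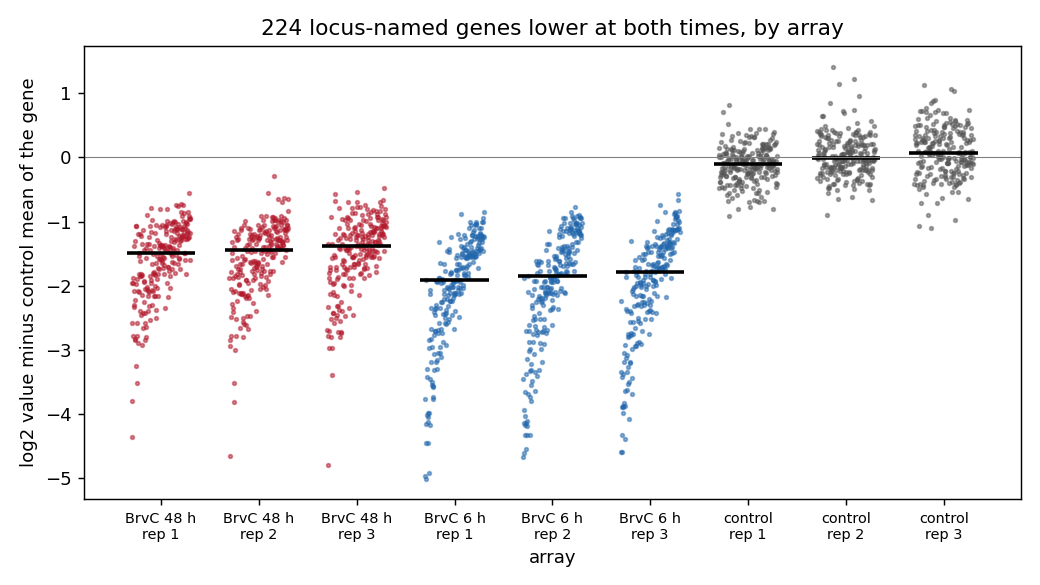
Log2 value of each of the 224 genes minus its own control mean, for the 9 arrays (points: genes, set from left to right by their mean difference from control; black bars: median of the array). The medians lay between -1.49 and -1.38 in the 48 h arrays and between -1.91 and -1.78 in the 6 h arrays, against -0.10 to 0.07 in the control arrays.

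Of the 12 genes with the lowest mean of the differences, AT1G73610 came first. Its values were 5.16, 5.25 and 4.43 at 48 h and 2.16, 2.46 and 2.53 at 6 h, against 7.13, 7.53 and 6.71 in control. All 3 groups were apart, and the 6 h leaves were the lowest. AT3G62950 had 1.77, 2.64 and 2.79 at 48 h and 1.81, 2.12 and 2.23 at 6 h, against 5.09, 5.56 and 6.06 in control. Here the BrvC groups overlapped each other, and both lay more than 2 units below every control array. AT5G47610 had 2.78, 2.48 and 2.34 at 48 h and 5.22, 5.24 and 4.89 at 6 h, against 7.17, 6.80 and 7.40 in control. Its order was the opposite of that of AT1G73610, since the 48 h leaves were the lowest.

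AT2G41250 had 5.73, 5.47 and 5.97 at 48 h and 4.16, 4.38 and 4.42 at 6 h, against 8.45, 8.51 and 7.97 in control. AT3G51540 had 8.01, 8.17 and 8.62 at 48 h and 4.96, 5.35 and 5.37 at 6 h, against 9.58, 10.00 and 10.31 in control. AT5G50940 had 5.85, 5.23 and 5.92 at 48 h and 3.28, 3.59 and 3.40 at 6 h, against 7.35, 7.70 and 8.14 in control. In these genes the 48 h leaves lay between the 6 h leaves and the controls. AT1G62510 had 7.73, 7.72 and 7.80 at 48 h and 7.21, 6.49 and 7.09 at 6 h, against 10.21, 10.63 and 10.70 in control. It had the widest gap of all 224 between BrvC and control arrays.

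AT3G14200 averaged 8.89 ± 0.21 at 48 h and 6.90 ± 0.23 at 6 h, against 10.97 ± 0.23 in control (SD, n = 3 each). AT5G02230 averaged 4.68 ± 0.38 at 48 h and 3.73 ± 0.15 at 6 h, against 7.22 ± 0.26 in control (SD, n = 3 each). AT4G33420 averaged 9.50 ± 0.26 at 48 h and 7.09 ± 0.23 at 6 h, against 11.29 ± 0.26 in control (SD, n = 3 each). All 3 were lowest at 6 h. AT1G68620 averaged 7.25 ± 0.25 at 48 h and 4.55 ± 0.36 at 6 h, against 8.71 ± 0.34 in control (SD, n = 3 each). AT2G32150 was the only measured gene of 9 in a list of genes induced by darkness or sugar starvation, drawn from general knowledge. It had 7.32, 7.21 and 6.76 at 48 h and 4.66, 4.57 and 4.82 at 6 h. In control it had 8.95, 8.89 and 8.27. Its lower signal in both BrvC groups was a condition of its choice. A response to darkness or sugar starvation was therefore not tested by this gene.

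**Figure D2:**
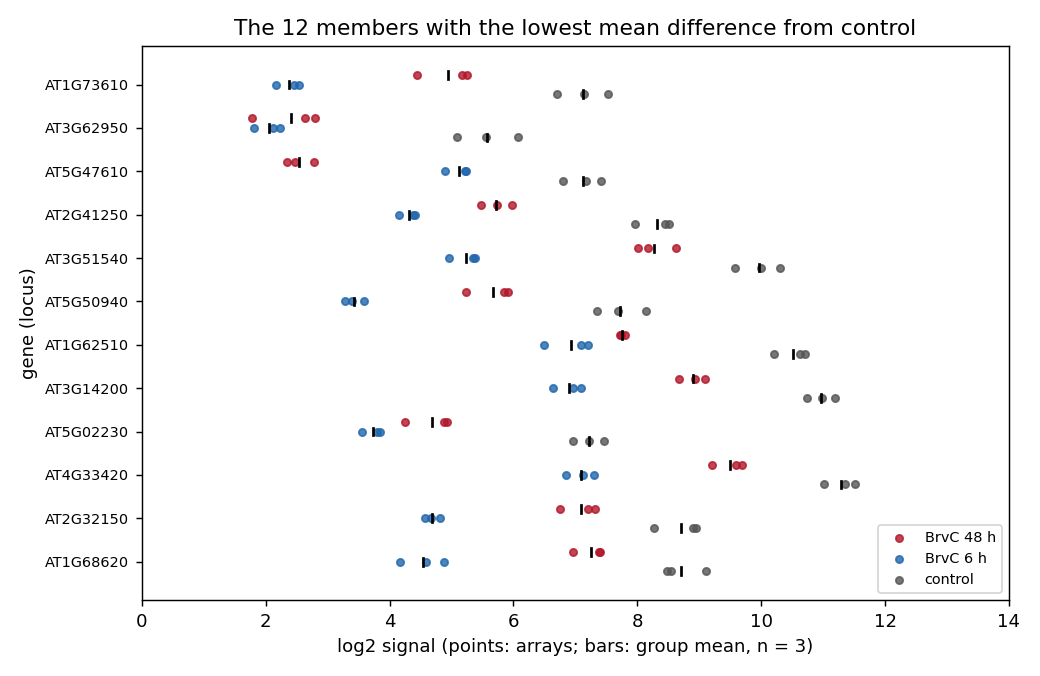
Log2 signal (horizontal axis) of the 12 genes with the lowest mean difference from control, in the BrvC 48 h, BrvC 6 h and control arrays (points: arrays; black bars: group means, n = 3). AT5G47610 was lowest at 48 h, with a mean of 2.53 against 5.12 at 6 h, AT3G62950 had overlapping BrvC groups, and the other 10 genes were lowest at 6 h.

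The 5 genes with the brightest control signals were AT4G33420 and AT3G14200, given above, with AT2G05540, AT1G73750 and AT1G62510. A probe set's brightness depends on its probes, so these signals are not set against each other as levels. AT2G05540 averaged 9.94 ± 0.34 at 48 h and 8.38 ± 0.17 at 6 h, against 11.11 ± 0.31 in control (SD, n = 3 each). AT1G73750 averaged 9.49 ± 0.57 at 48 h and 7.09 ± 0.12 at 6 h, against 11.08 ± 0.44 in control (SD, n = 3 each). Both were still far above the dim end of the arrays when they were lowest. At that end, 12 of the 224 genes at 48 h and 19 at 6 h had a mean in the lowest 25% of all probe sets, against 0 in control, and a log2 difference is compressed there. Across the 224 genes Pearson's r between the control mean and the mean difference was -0.35, as a description of genes that share arrays and that enter both quantities with the same control values.

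Near the threshold at 48 h, AT1G53340 (-1.005), AT1G11925 (-1.003) and AT2G40620 (-1.003) lay just inside, while AT1G10740 (-0.997), AT5G06800 (-0.995) and AT5G35970 (-0.994) lay just outside. At 6 h, AT4G09150 (-1.02), AT4G21445 (-1.01) and AT5G03610 (-1.01) lay just inside, while AT1G15010 (-0.998), AT5G10150 (-0.986) and AT1G35210 (-0.963) lay just outside. A further 6 genes were low enough at both times but were left out because a BrvC array reached a control array. They were AT1G19490, AT1G23880, AT2G34655, AT3G19230, AT3G28640 and AT4G33610.

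With each time taken singly, 365 of the 14745 locus-named genes at 48 h and 878 at 6 h were lower by at least 1. In these the arrays of that time were apart from control. The 224 genes are 61.4% of those at 48 h and 25.5% of those at 6 h, beside 1.52% of all locus-named genes. The comparisons share their controls, so that no more is read from this overlap. Among the 1805 genes with another symbol 37 met the same rule (2.05%), and among the 21686 probe sets with several genes or none listed 292 did (1.35%). The mirror rule, higher by at least 1 at both times with arrays apart, held for 189 locus-named genes (1.28%).

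The difference between 48 h and 6 h was not itself a condition of the rule. It is, however, the 48 h difference from control minus the 6 h one, and the rule set a bound on both. The shares of the 224 genes called between the times therefore depend in part on the choice, and they are a description. In limma 69 of the 224 genes (30.8%) had a higher signal after 48 h than after 6 h, where 9.62% of all 16550 genes did, with 20.3% called in either direction. A further 14 (6.25%) were lower at 48 h, where 10.7% of all genes were called lower. The other 141 genes did not pass the test, and their differences ran from -0.87 to 1.16, with 126 of them within 0.5 of 0, which does not show that the times were alike. The median difference over the 224 was 0.34, against 0.02 over all genes tested. The 3 arrays at 48 h lay wholly above those at 6 h for 95 of the genes (42.4%, against 19.2% of all genes) and wholly below them for 19 (8.48%, against 18.2%). The calls used Benjamini-Hochberg adjustment over all genes at 0.05, from a two-sided moderated test. Counts of members higher ranged from 55 to 76 and of members lower from 10 to 15 when single arrays were left out.

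**Figure D3:**
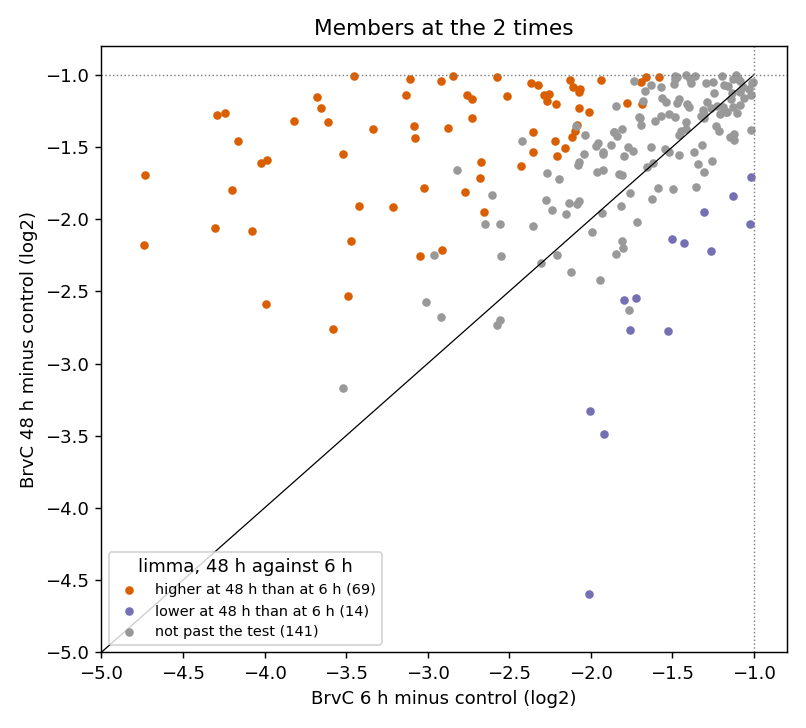
Difference from control at 48 h (vertical axis, log2) against that at 6 h (horizontal axis, log2) for the 224 genes, coloured by limma's test of 48 h against 6 h. Dotted lines mark the thresholds that chose the genes, and points above the diagonal were nearer to control at 48 h. The 69 genes called higher at 48 h than at 6 h lie above the diagonal, and the 14 called lower lie below it.

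The largest differences toward control at 48 h were those of AT3G51540 (3.04, SE 0.23, limma adjusted p = 8.84e-07) and AT3G32980 (3.01, SE 0.30, adjusted p = 1.06e-05). AT3G32980 had 7.68, 7.35 and 7.40 at 48 h and 3.84, 4.43 and 5.11 at 6 h, against 8.81, 9.20 and 8.25 in control. AT3G19390 differed by 2.97 (SE 0.35, adjusted p = 4.37e-05). Its controls spread widely, with 8.64, 8.30 and 6.87 beside 6.86, 6.78 and 6.36 at 48 h, so that the last control array was barely above the first 48 h array. At 6 h it had 3.77, 3.76 and 3.56. AT1G68620 differed by 2.70 (SE 0.23) and AT1G73610 by 2.56 (SE 0.25), with adjusted p of 3.003e-06 and 9.60e-06. Even so, each of these genes was still at least 2-fold below control at 48 h, as the rule required.

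Most of the 31 genes that were at least 8-fold below control at 6 h had a higher signal in the 48 h leaves, which were separate samples. In limma 29 were called higher and 0 lower. Of the 63 genes between 4-fold and 8-fold below control at 6 h, 34 were called higher and 2 lower. Of the 130 genes under 4-fold, 6 were called higher and 12 lower. Over all genes tested 9.62% were called higher and 10.7% lower. The 6 h values enter both the grouping and the difference. The rule's bound of -1 at 48 h also left the genes nearer to control at 6 h less room to rise. These counts are therefore a description, and no pattern is read from them. The median difference from control at 48 h was -1.61, -1.56 and -1.31 in these groups, from the deepest to the shallowest at 6 h.

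A smaller set was lower still at 48 h. AT5G47610, given above, was lower at 48 h than at 6 h by 2.58 on the log2 scale (difference -2.58, SE 0.20, limma adjusted p = 1.27e-06). AT5G16030 had 3.74, 3.19 and 3.60 at 48 h and 4.87, 5.16 and 5.21 at 6 h, against 6.91, 7.34 and 6.75 in control (48 h minus 6 h -1.57, SE 0.21, adjusted p = 0.000115). AT2G23840 had 4.14, 4.14 and 4.68 at 48 h and 5.59, 5.55 and 5.79 at 6 h, against 7.49, 7.49 and 7.98 in control (48 h minus 6 h -1.32, SE 0.20, adjusted p = 0.000379). In these genes the 3 groups did not overlap, and the 48 h arrays were the lowest. AT2G46780 (-1.25, SE 0.18) and AT4G15430 (-1.01, SE 0.23) were also lower at 48 h than at 6 h, with adjusted p of 0.000240 and 0.00613. Of the 4 genes that were at least 8-fold below control at 48 h, AT5G47610, AT5G16030 and AT2G23840 were of this kind, and AT3G62950 did not pass the test between the times (0.35, SE 0.29, adjusted p = 0.483).

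**Figure D4:**
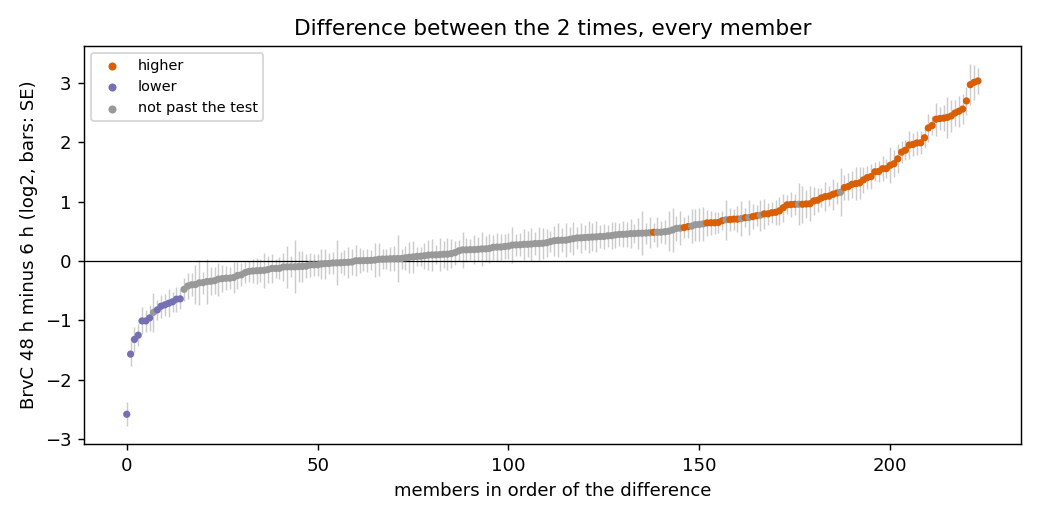
Difference between 48 h and 6 h (log2, 48 h minus 6 h) for each of the 224 genes in order of its size (points: estimates; bars: SE of limma's fit; colours: result of the test). The differences ran from -2.58 to 3.04, with 164 above 0 and 60 below.

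The 4 genes with a descriptive synonym in the reference table were looked at for having a name. AT3G21670 is listed as NPF6.4 of the NRT1/PTR family, whose members carry nitrate, peptides and other small solutes across membranes. It had 4.06, 3.64 and 3.31 at 48 h and 2.93, 2.89 and 3.09 at 6 h, against 5.95, 5.78 and 5.91 in control. Its BrvC groups did not overlap, and it was higher at 48 h than at 6 h (0.70, SE 0.20, limma adjusted p = 0.0211), a call lost without any 1 of 6 h replicates 1 and 2 and 48 h replicates 1 and 2 (adjusted p of at most 0.1002). AT3G13672 is listed as SINA2, of a family that includes RING-type ubiquitin ligases, which mark proteins for breakdown. The name alone does not show that its own product has this activity.

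AT3G13672 averaged 6.61 ± 0.20 at 48 h and 6.03 ± 0.04 at 6 h, against 7.80 ± 0.31 in control (SD, n = 3 each). It was higher at 48 h than at 6 h by 0.58 (SE 0.19, limma adjusted p = 0.0464), a call that ended when all value table entries were adjusted for and when single arrays were left out, namely any 6 h replicate, 48 h replicates 2 and 3 or control replicate 1 (adjusted p up to 0.163). AT1G22490, listed as bHLH94, and AT2G40620, listed as bZIP18, belong to the basic helix-loop-helix and basic leucine-zipper families of transcription factors. AT1G22490 averaged 4.00 ± 0.25 at 48 h and 4.13 ± 0.11 at 6 h, against 5.36 ± 0.22 in control (SD, n = 3 each). AT2G40620 averaged 5.67 ± 0.17 at 48 h and 5.57 ± 0.12 at 6 h, against 6.67 ± 0.01 in control (SD, n = 3 each). Neither factor passed the test between the times in limma (differences -0.12, SE 0.19, adjusted p = 0.748, and 0.11, SE 0.16, adjusted p = 0.753).

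The genes were spread over all chromosomes nearly in proportion to the locus-named genes measured there. There were 60 on chromosome 1 (1.55% of the locus-named genes measured there), 33 on chromosome 2 (1.46%), 46 on chromosome 3 (1.52%), 33 on chromosome 4 (1.53%) and 52 on chromosome 5 (1.51%). The median gene span was 1824 bp for the 224 genes and 1873 bp for the other locus-named genes with a span. A locus number not ending in 0, as given to genes added after the first annotation, was found in 15.2% of the 224 and in 16.2% of the others.

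Some of the genes lay next to each other. In the order of protein-coding genes 187 of the 224 had a locus-named measured gene as a direct neighbour, and for 14 of these (7.49%) that neighbour was another of the 224. Of the genes outside the 224 with such a neighbour, 2.13% lay next to one of the 224. These shares are a description, with no test. The 14 genes form 7 pairs, and in none do the gene models overlap. Direct neighbours can be tandem copies that share probe sequences, and their likeness was not tested.

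The pair AT4G33660 and AT4G33666 lay furthest below control when the differences of both genes and times are averaged. AT4G33666 had 6.99, 6.95 and 6.98 at 48 h and 4.96, 4.80 and 5.26 at 6 h, against 8.24, 8.54 and 8.79 in control, and was higher at 48 h than at 6 h by 1.97 (SE 0.19, limma adjusted p = 7.54e-06). AT4G33660 had 5.02, 4.84 and 5.54 at 48 h and 4.22, 4.45 and 4.40 at 6 h, against 6.83, 6.48 and 7.58 in control. Its difference between the times, 0.77 (SE 0.26), did not pass the test (adjusted p = 0.0533, and between 0.0130 and 0.0452 under the 8 of the alternatives that called it). In the pair AT4G15690 and AT4G15700 limma called both genes higher at the later time, by 0.80 (SE 0.19, adjusted p = 0.00818) and 1.62 (SE 0.30, adjusted p = 0.00169). AT4G15690 averaged 3.80 ± 0.28 at 48 h and 3.001 ± 0.15 at 6 h, against 5.43 ± 0.19 in control (SD, n = 3 each), and AT4G15700 averaged 8.46 ± 0.21 at 48 h and 6.85 ± 0.38 at 6 h, against 9.60 ± 0.70 in control (SD, n = 3 each).

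The other 5 pairs had smaller differences between the times, and none of their genes passed the test between 48 h and 6 h with the values as deposited. AT3G09440 (0.46, SE 0.16, limma adjusted p = 0.0595) was called higher at 48 h under 4 of the alternatives (adjusted p between 0.0195 and 0.0450). AT5G46490 and AT5G46500 differed from control by -1.39 and -1.23 at 48 h and by -1.21 and -1.26 at 6 h. AT3G50560 and AT3G50570 differed from control by -2.42 and -1.69 at 48 h and by -1.94 and -1.81 at 6 h. AT3G09440 and AT3G09450 had -1.39 and -1.35 at 48 h and -1.86 and -1.69 at 6 h. In these pairs the differences of both neighbours from control lay within 1 unit of each other at each time. AT2G42975 and AT2G42980 had -2.02 and -1.53 at 48 h and -1.72 and -1.92 at 6 h, and AT2G23100 and AT2G23110 had -1.66 and -1.23 at 48 h and -1.93 and -1.40 at 6 h.

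A second probe set was listed for 5 of the 224 genes, and it was left out by the rule because its mean signal was lower. For AT2G21185 it also lay far below control, with -1.80 at 48 h and -2.75 at 6 h, beside -1.01 and -2.85 for the probe set used. For AT2G42370 the second probe set had -0.82 at 48 h and -0.58 at 6 h, beside -1.01 and -1.36, and so missed the threshold at both times. For the other 3 genes the probe sets disagreed. AT1G69570 had 0.18 at 48 h and -0.50 at 6 h, beside -1.91 and -3.42, and AT3G05900 had -0.48 and 0.05, beside -2.56 and -1.80. AT4G00980 had 0.51 at 48 h and 0.29 at 6 h, beside -1.52 and -1.55. A fall of these 3 genes therefore rests on 1 of their 2 probe sets. With the mean of the probe sets of each gene, the rule chose 220 genes, all among the 224.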

How the data were processed

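Total RNA of 9 leaf samples was measured on 1 Affymetrix array each. The authors deposited log2 values per probe set. Per the submitters' processing notes RMA, oligo and limma were used, with no version given. RMA compresses differences of dim signals. Genome build and array annotation are not given in the sources used here. Of 38408 entries 16722 had 1 gene, which left 16550 genes (by Entrez ID, highest-mean entry), all tested with no filter. The model, with a mean for each group, used the 9 arrays together (lmFit and eBayes of limma 3.58.1, R 4.3.3; 6 residual and 7.04 prior degrees of freedom), with Benjamini-Hochberg adjustment per comparison, and the fit was tested on simulated data. The number of arrays limits the precision.

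The genes and lists were chosen with earlier results of these data known. Named are the 12 lowest mean differences, the 5 largest called differences between the times in each direction, the 5 brightest controls, the genes nearest the thresholds and neighbouring genes. Classes by function were void, since 1.79% of the genes had a descriptive name in the reference where 80% were required. Promoter motifs and sequences were not analysed here. Alternatives were other scaling, entries, filters, variance models, thresholds, a replicate block and single arrays left out. Deviations of arrays with the same replicate number correlated at 0.302, 0.242 and 0.539 for 48 h and control. All of these were over the bound of 0.1, which pairs these arrays, as a property of the data. The deviations correlated at 0.102, -0.051 and -0.012 for 48 h and 6 h, where only the first was over 0.1. For 6 h and control they correlated at 0.034, -0.032 and 0.012.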

Additional observations from a re-analysis of the deposited data

Results flagged for a closer look

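In limma's test of 48 h minus 6 h, the effects against control differed for 25 of the 43 named genes followed under the alternatives. The adjusted p was taken over all genes, of which 20.3% were called in either direction. Some of the 25 were named for the largest called differences between the times, so their count depends in part on that choice. Those nearer to control at 48 h by at least 2 units were AT3G51540 (3.04), AT3G32980 (3.01), AT3G19390 (2.97), AT1G68620 (2.70), AT1G73610 (2.56), AT1G53340 (2.45), AT2G32150 (2.41), AT4G33420 (2.40), AT1G73750 (2.39) and AT5G50940 (2.24). Differences between 1 and 2 were those of AT3G14200 (1.995), AT4G33666 (1.97), AT4G15700 (1.62), AT2G05540 (1.56) and AT2G41250 (1.41). Smaller ones were those of AT5G02230 (0.95), AT1G62510 (0.82), AT4G15690 (0.80), AT3G21670 (0.70) and AT3G13672 (0.58). Those further below control at 48 h than at 6 h were AT5G47610 (-2.58), AT5G16030 (-1.57), AT2G23840 (-1.32), AT2G46780 (-1.25) and AT4G15430 (-1.01). Groups of 3 arrays are too small for a test of single outlying arrays.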

How the results depend on the processing

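Centring each array on the median of all entries moved the median of all genes tested to -0.25 at 48 h and -0.46 at 6 h against control, from -0.06 and -0.10. The rule then chose 368 genes, among them all 224, and limma called 1700 genes lower than control at 48 h and 6868 at 6 h, against 864 and 2180 as deposited. Between the times it called 2445 genes higher at 48 h (66.0% of the calls, against 47.4%, or 1592, as deposited), and the median over the 224 was 0.50, against 0.34. Renewed quantile normalization gave 3488 genes lower than control at 6 h. The share of higher calls was 55.8% between the times after it, 33.6% at 48 h and 34.1% at 6 h against control, and 23.1% and 17.3% after centring, where the deposited values gave 51.0% and 51.9%. It chose 288 genes, 223 of them among the 224. A threshold of -1.5 left 85 genes, all among the 224, and one of -0.8 gave 320. The cause of these shifts was not tested beyond the median shifts given.

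Without single arrays the rule chose 213 to 248 genes, of which 190 to 221 were among the 224. Calls between the times were 1109 to 1839 higher and 1361 to 1929 lower over all genes, and 55 to 76 and 10 to 15 over the 224, whose median was 0.28 to 0.36. Genes lower than control were 629 to 1079 at 48 h and 1629 to 2361 at 6 h. With the replicate block 71 of the 224 were called higher and 15 lower, and 1059 and 2498 genes were lower than control at 48 h and 6 h, with no count moved by over 1.5 times.

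Of the 25 named genes called between the times 22 kept their call under every alternative. Some of the 25 were named for the size of their called difference, so this count is a description. AT1G62510 lost it without 6 h replicate 2 (0.60, adjusted p = 0.0717), and AT3G13672 and AT3G21670 as given above. No called difference between the times changed sign among the named genes, while small differences that were not called could, as that of AT1G22490 (-0.12 as deposited, 0.04 after centring) and of AT2G23100 (0.27, and -0.13 without 48 h replicate 3). AT4G33660 as given above, AT3G09440 and AT1G11925 (0.48, adjusted p = 0.0445, with array weights, and 0.58, adjusted p = 0.0480, after centring) were called higher at 48 h under some alternatives only. The number of arrays, 3 per group, and compression of dim signals limit what can be seen.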
